A study of Mus musculus with 6 samples.

Results

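The 8 genes described here are Apol7c, 4 further apolipoproteins (Apoe, Apod, Apoc1 and Apom) and 3 lipoprotein receptors (Lrp1, Vldlr and Scarb1). Each was taken from the array's probe annotation as every probe that names that gene and no other. This gave 1 probe for each gene, 8 of the 13840 genes that have a probe of their own among the 33012 probes of the table. The genes were picked with the ratio between high and low gainers already known, for Apol7c because its signal was far lower in high gainers, so their values in this contrast are a description and carry no test.

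The study asked which transcripts in fat differ between genetically identical mice that gain much or little weight on the same food. All mice were C57BL/6J males, given the high saturated fat diet D12331 from 8 weeks of age for 4 weeks. Inguinal fat, a subcutaneous depot, was pooled as RNA from 8 mice with high and from 8 mice with low weight gain, and each pool was hybridised to 3 arrays. No group on another diet or before the diet enters the comparison. All 3 arrays of a group carried the same RNA, so every SD, SE and p-value below measures the spread between arrays (n = 3 a pool) and says nothing of how single mice varied.

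Apolipoproteins coat lipid particles and steer them to enzymes and receptors. Apoe is the classical ligand of the endocytic lipoprotein receptors, to which Lrp1 and Vldlr belong, while Scarb1 takes up cholesteryl ester from high-density lipoprotein without engulfing the particle. Fat cells and the macrophages among them both make Apoe. The apolipoprotein L genes share the name but are a separate, largely intracellular family with membrane-active domains, rapidly duplicated in rodents and often induced in immune cells.

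For comparison the stretches upstream of Apol7c and of its close relative Apol7b are shown, which do not tell what transcript the probe measured. Both come from RefSeq's table for mouse build GRCm38.p6, on the minus strand of chromosome 15, and end before the outermost annotated start of the gene. Apol7c lies at chr15:77533336-77533565 (230 bases) and Apol7b at chr15:77447461-77447710 (250 bases), both written 5′ to 3′. Capitals mark a direct repeat of AGGTCA with 1 base between its copies, the 13 aligned bases in Apol7b, and the TATA-like letters TATATAAG.
Apol7c: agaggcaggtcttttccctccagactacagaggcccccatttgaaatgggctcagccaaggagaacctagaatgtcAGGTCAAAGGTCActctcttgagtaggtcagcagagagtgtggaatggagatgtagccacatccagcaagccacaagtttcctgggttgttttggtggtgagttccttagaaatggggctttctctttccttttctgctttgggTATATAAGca
Apol7b: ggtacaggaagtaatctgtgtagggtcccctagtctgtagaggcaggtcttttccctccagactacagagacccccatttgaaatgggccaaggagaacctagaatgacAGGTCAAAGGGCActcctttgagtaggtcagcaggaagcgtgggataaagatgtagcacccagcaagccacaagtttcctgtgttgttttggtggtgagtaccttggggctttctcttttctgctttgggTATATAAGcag

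Over the whole window of 300 bases (250 before and 50 after the start), Apol7c matched Apol7b at 238 bases (79.3%) and Apol7e, a further copy, at 242 bases (80.7%). Within the 13 capital bases the pair differed by T11G, with the Apol7c base first and positions counted from the first of the 13. The probe sequence is not used here, so it is not known whether the Apol7c probe tells its transcript from those of Apol7b and Apol7e.

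The letters AGGTCA, any 1 base and AGGTCA again, searched on both strands, stood in 13 of 32851 RefSeq windows of this length (0.0396%). Among the 8 genes, 6 had a window, and only that of Apol7c held the repeat. It lay 174 to 162 bases before the start that its window is counted from. The printed Apol7c stretch of 230 bases ends earlier, before the outermost annotated start, so its end is not that point. Nuclear receptors such as the PPARs are known to bind repeats with 1 base between the copies. A match is only a run of letters, however, and the motifs were chosen after the sequence had been seen. The same repeat with 4 bases between its copies, known from LXR sites, was in 5 windows (0.0152%) and in none of the 6. TATATAAG was in 331 windows (1.01%) and of the 6 only in that of Apol7c. GAAA repeated after any 2 bases, a core of interferon response elements, was in 1131 windows (3.44%), those of Apol7c and Vldlr included.

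The deposited values are quantile-normalized signals, so that each array has the same distribution and a signal has no unit beyond this scale. Of all probes, 15821 had a value on all 6 arrays and entered the fit. Correlations of log2 signal ran from 0.988 to 0.994 within a pool and from 0.972 to 0.980 between pools. As for the tissue, 10 of 14 adipocyte markers had a named probe, all 10 with a value on every array, among them Fabp4, Plin1 and Cidec. Leptin (Lep), the hormone that scales with fat mass, was higher in high gainers at a log2 ratio of 0.83 (adjusted p = 0.0035, limma), the only adipocyte marker past the thresholds.

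Apol7c had the lowest ratio of the 7 genes measured on every array. Its signal was 42487, 44749 and 42221 on the 3 high gainer arrays and 211287, 175975 and 187404 on the 3 low gainer arrays. Every high gainer array was therefore far below every low gainer array, and the values within each pool were close. The means were 43152 ± 1389 and 191555 ± 18018 (SD, n = 3 arrays each), a log2 ratio of high over low gainers of -2.15 (SE 0.10) or 4.43-fold lower in high gainers. In these pools of whole tissue, fewer cells that contain a transcript and less of it per cell cannot be told apart.

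Among the 15821 probes the Apol7c ratio was the 12th lowest, and of the 11 below it 3 carried a single symbol. These were Ucp1 (-2.77), which uncouples respiration in brown and beige fat cells, Krt18 (-2.65), an epithelial keratin, and Cd8b1 (-2.23), a chain of the cytotoxic T cell coreceptor, whose brighter second probe was at -1.82. Krt18 had a mean signal in the dimmest 33.3% of tested probes. Apol7c was also a well measured probe, with a mean signal above that of 84.2% of the tested probes and a within-pool SD of 0.10 on the log2 scale against a median of 0.16 over all.

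**Figure D1:**
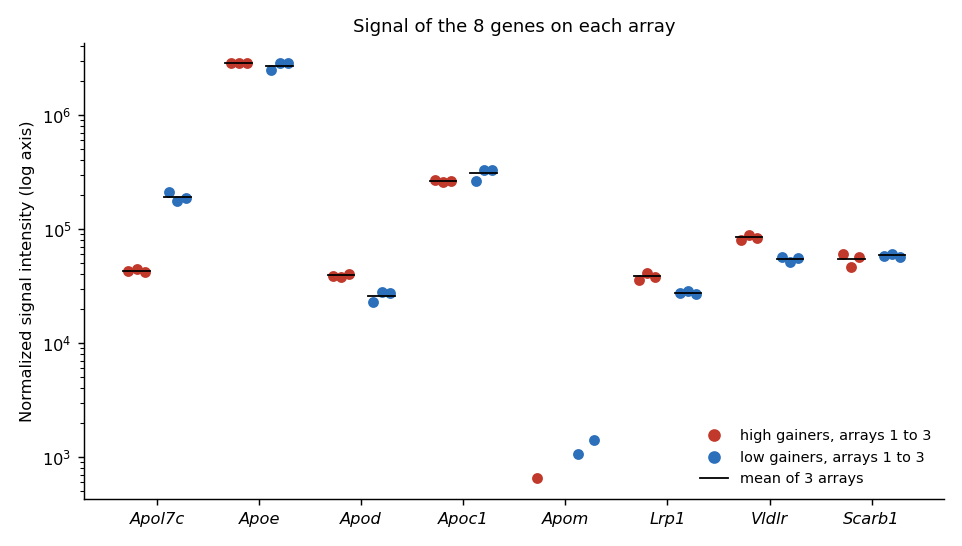
Signal (quantile-normalized, log axis) of the 8 genes on each array, high gainers and low gainers apart, with a point for an array and a line at the pool mean. The 3 high gainer points of Apol7c (42221 to 44749) sit far below its low gainer points (175975 to 211287), the pools of Apod, Lrp1 and Vldlr part the other way by less, and Apom lacks points where an array has no value.

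Of the other apolipoproteins, Apoc1 and Apod showed no gap of this size, while Apoe and Apom could not be judged. Apoe gave 2833436 on all 3 high gainer arrays and 2461004, 2833436 and 2833436 on the low gainer arrays. It was the highest probe of the table on 5 arrays and the next highest on low gainer array 1. Quantile normalization gives the top probe of each array one shared value, so the Apoe ratio of 0.07 (SE 0.10, log2) follows from its rank alone and shows no difference or its absence.

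Apoc1, a small apolipoprotein of triglyceride-rich particles that hinders their uptake, had signals of 268590, 256926 and 261124 in high gainers and 263734, 329782 and 332173 in low gainers. The pools overlapped, since low gainer array 1 lay inside the high gainer range. The means, 262213 ± 5908 and 308563 ± 38841, gave a log2 ratio of -0.23 (SE 0.12), and most of the spread was within the low gainers.

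Apod, a lipocalin that carries arachidonic acid and other small lipids, lay on the opposite side to Apol7c. Its signals were 38730, 38306 and 40332 in high gainers and 22840, 28027 and 27345 in low gainers. The pools did not overlap. The means of 39123 ± 1069 and 26071 ± 2819 gave a log2 ratio of 0.59 (SE 0.11), 1.51-fold higher in high gainers.

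Apom, a lipocalin of high-density lipoprotein that carries sphingosine-1-phosphate and is made mainly in liver and kidney, was barely measured. It read 653 on high gainer array 1 and 1069 and 1400 on low gainer arrays 1 and 3, with no value on the other 3 arrays. It was not fitted, and no ratio is given.

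The receptors gave 2 higher values and 1 overlap. Vldlr, which binds Apoe-bearing triglyceride-rich particles beside lipoprotein lipase, had signals of 80778, 89103 and 82938 in high gainers and 56444, 51114 and 55328 in low gainers. No array of one pool reached the range of the other. The means were 84273 ± 4320 and 54295 ± 2811, a log2 ratio of 0.63 (SE 0.09) or 1.55-fold higher in high gainers.

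Lrp1, a large endocytic receptor for Apoe-bearing remnants and many protease complexes, read 35924, 41515 and 38267 in high gainers against 27376, 28755 and 26967 in low gainers. Again the pools were apart, with the high gainers above. The means of 38569 ± 2808 and 27699 ± 937 gave a log2 ratio of 0.48 (SE 0.10), 1.39-fold higher in high gainers.

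Scarb1, the high-density lipoprotein receptor, read 60780, 46367 and 56996 in high gainers and 58545, 60945 and 57092 in low gainers. The ranges overlapped, with the single low reading on high gainer array 2. The means were 54714 ± 7472 and 58861 ± 1946, a log2 ratio of -0.11 (SE 0.12).

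Set side by side, the 6 measured genes other than Apol7c ran from -0.23 to 0.63 with a median log2 ratio of 0.27, or 0.48 without Apoe at its ceiling, where the median of all tested probes was 0.03. The lowest of them, Apoc1, left a gap in log2 ratio, Apol7c minus Apoc1, of -1.92. At an adjusted p under 0.01 in limma with a fold of at least 1.5, used for the other genes below, 3.99% of tested probes were lower and 2.50% higher in high gainers (6.50% in all). Of the 7 genes, Apol7c lay past these thresholds as lower and Vldlr as higher, which is a description and no test of them. The pools were apart for 3 of the 7 with high gainers above and for 1 with high gainers below, where this held for 20.3% and 16.3% of all tested probes (36.6% in all). Since the genes were chosen from this contrast, nothing is read from these counts.

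The rest of the apolipoprotein L family was thinly covered. Of 13 relatives, 2 had a probe that names them alone and 1 had a value on all arrays. Apol10b read 17807, 17174 and 15913 in high gainers and 13119, 12789 and 11813 in low gainers, apart and on the other side from Apol7c. Its log2 ratio of 0.43 (SE 0.10) did not pass the thresholds (adjusted p = 0.0232, limma). Apol7a read 2865, 2761 and 2674 in high gainers and 3398 and 3511 on low gainer arrays 1 and 3, with no value on the other, and was not fitted. In RefSeq, 12 Apol genes are on chromosome 15, and in the order of these genes Apol7c comes between Apol11a and Apol10b. Whether other genes lie between them was not examined.

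Among 12 further apolipoproteins, 10 had a named probe and 9 were tested, of which 1 was higher and 1 lower. Their median log2 ratio was 0.46 against 0.03 for all tested probes, and in 7 of 9 the pools were apart with high gainers above, as in 20.3% of all tested probes. Apoc4, a minor apolipoprotein of very-low-density particles, read 10735, 10407 and 13028 in high gainers and 6072, 5519 and 5406 in low gainers. It was higher in high gainers at a log2 ratio of 1.00 (SE 0.12, adjusted p = 0.00158, limma). In RefSeq a gene model spanning both overlaps Apoc2 and Apoc4, which lie next to Apoc1 and Apoe on chromosome 7, so that the transcript behind the Apoc4 value is uncertain.

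Clu, also called apolipoprotein J, is a secreted chaperone found on high-density lipoprotein and made by many epithelia. It read 433743, 425731 and 423789 in high gainers and 919139, 716143 and 767711 in low gainers. It was 1.86-fold lower in high gainers (log2 ratio -0.90, SE 0.12, adjusted p = 0.00236). The other 7 ran from -0.03 for Apoa1 to 0.74 for Apoc2, the activator of lipoprotein lipase (adjusted p = 0.0249), and none passed. Apoc4 kept its call with each array left out in turn, whereas Clu kept it in 3 of 6 such fits (adjusted p up to 0.0144, without high gainer array 1).

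**Figure D2:**
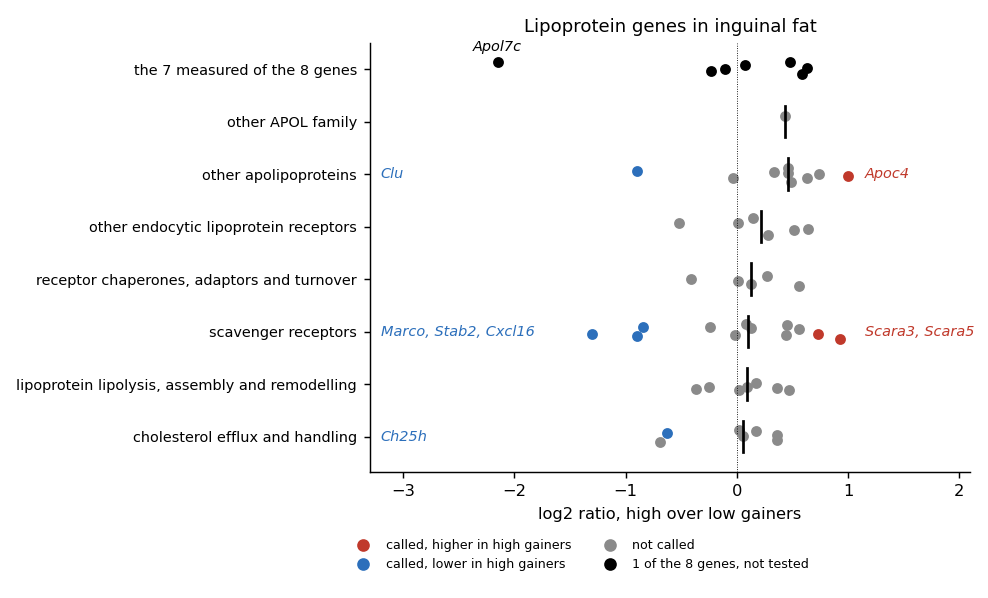
Log2 ratio of high over low gainers (x axis) for the 7 measured of the 8 genes and for the tested genes of 7 related lists (rows), with a point for a gene and a black bar at a list's median. Red and blue points passed the thresholds, 3 higher and 5 lower, and all lie between -1.30 (Marco) and 1.00 (Apoc4), while Apol7c is at -2.15.

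Beyond Lrp1 and Vldlr, the endocytic lipoprotein receptors and their relatives gave no call. Of 15 further genes, 9 had a named probe and 6 were tested, with a median log2 ratio of 0.22. At an unadjusted p under 0.05 limma placed 2 higher and 1 lower, where 17.4% of all tested probes were higher and 13.6% lower at that threshold, the test of the study's methods, unadjusted, called 1 higher, and limma with trend and robust variance called none. Lrp5, a Wnt co-receptor, had a ratio of 0.64 (adjusted p = 0.0159) at a dim signal, and Sorl1, a sorting receptor that binds Apoe, had -0.52 (adjusted p = 0.0178).

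The chaperones and adaptors of these receptors gave no call either, in limma or in the methods' test, with 5 of 9 genes tested and a median of 0.13. Without adjustment limma put 2 of them higher and 1 lower at p under 0.05. Dab2, an endocytic adaptor, was at 0.56 (adjusted p = 0.0571) and Mylip, the ubiquitin ligase that sends lipoprotein receptors for degradation, at -0.41 (adjusted p = 0.0296).

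Scavenger receptors, the class that holds Scarb1, moved both ways. Of 15 further genes 12 were tested, with 2 higher and 3 lower and a median log2 ratio of 0.11. Marco, a receptor of particular macrophages such as those of lymph node sinuses and spleen, read 8648, 7637 and 5807 in high gainers and 15248, 20267 and 18608 in low gainers, 2.47-fold lower (log2 ratio -1.30, SE 0.17, adjusted p = 0.00285). Stab2, a hyaluronan receptor of sinus endothelium, was 1.86-fold lower (adjusted p = 0.00231). A second Stab2 probe lacked a value on some array and was not tested. Cxcl16, a membrane-bound chemokine of antigen-presenting cells that binds oxidised LDL, was 1.80-fold lower (adjusted p = 0.00479).

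Scara5, a ferritin receptor of stromal cells, read 9413, 8990 and 9826 in high gainers and 4541, 4544 and 5782 in low gainers. It was 1.91-fold higher (log2 ratio 0.93, adjusted p = 0.00264), with a mean signal in the dimmest 33.3% of tested probes. Scara3, which responds to oxidative stress, was 1.66-fold higher (log2 ratio 0.73, adjusted p = 0.00585). Cd36, the fatty acid translocase of adipocytes and the receptor most often set beside Scarb1, had overlapping pools and a log2 ratio of 0.08 (SE 0.12, adjusted p = 0.7). With each array left out in turn, Stab2 kept its call in 4 of 6 fits, Marco in 3, Cxcl16 in 2, and Scara3 and Scara5 in 1 each. The highest adjusted p was 0.0298 for Scara3 and 0.0275 for Cxcl16, both without high gainer array 1.

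Enzymes and factors of lipolysis and particle remodelling gave no call among the 7 of 16 genes tested, in limma or in the methods' test, with a median of 0.09. Without adjustment limma put 2 of them higher and 1 lower at p under 0.05. Angptl4, the fasting-induced inhibitor of lipoprotein lipase, had a log2 ratio of -0.37 (adjusted p = 0.0369), and Pon2, an intracellular lactonase, 0.47 (adjusted p = 0.0396). The mean over both tested Pon2 probes was 0.42 (adjusted p = 0.0229, limma). Lpl, the lipase itself, and Gpihbp1, which anchors it to capillaries, have no probe that names them alone.

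Cholesterol efflux and handling gave 1 lower gene among 7 of 16 tested, with a median of 0.06. This was Ch25h, which makes 25-hydroxycholesterol in activated macrophages and dendritic cells, at 6841, 7581 and 6263 in high gainers and 11012, 10749 and 10194 in low gainers. It was 1.55-fold lower (log2 ratio -0.63, adjusted p = 0.00737), close to the fold threshold, and kept its call in 0 of 6 fits with an array left out. Abca1, the transporter that loads lipid onto Apoa1, was at 0.02 (SE 0.14, adjusted p = 0.941). Abcg1, its partner for mature particles, was at -0.69 but did not pass (adjusted p = 0.0275). It passed with trended and robust variance (adjusted p = 0.00452), with an offset of 2848 added to all signals (adjusted p = 0.00703) and without low gainer array 1 (log2 ratio -0.86, adjusted p = 0.0097).

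Over the 7 lists together, 47 of 96 genes were tested. Of these 3 (6.38%) were higher and 5 (10.6%) lower, beside 2.50% and 3.99% of all tested probes, and the median log2 ratio was 0.17. With each array left out in turn, 1 or 2 were higher and 0 to 5 lower. None was lower without low gainer array 3, where limma without adjustment put 9 of 47 (19.1%) lower at p under 0.05, beside 10.9% of all tested probes in that fit. The lists leave out the 8 genes but were drawn up with earlier results of these data known.

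The probes nearest to Apol7c were named by their log2 values over the 6 arrays, each centred on its own mean, by Euclidean distance. The 5 nearest with a single symbol were Cdh1 (distance 0.25), Siglech (0.33), Ms4a1 (0.35), Sidt1 (0.39) and Ltf (0.47), none of them a lipoprotein gene. Their Pearson correlations with Apol7c over the 6 arrays ran from 0.987 to 1.000, which mostly restates the step between the pools. Siglech, a lectin of plasmacytoid dendritic cells, read 12255, 13143 and 12460 in high gainers and 51758, 42898 and 44933 in low gainers. Like Apol7c, both Siglech and Ms4a1 were highest on low gainer array 1 and lowest of that pool on array 2. Since the arrays of a pool carried the same RNA, nothing is read from this order.

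Cdh1, or E-cadherin, joins epithelial cells and was 4.19-fold lower in high gainers. Ms4a1, which encodes CD20 of B cells, was lower by 3.79-fold, Sidt1, a nucleic acid transporter of lymphoid and other cells, 3.97-fold lower, and Ltf, the secreted lactoferrin of glands and neutrophils, 3.87-fold lower. Some of these signals were weak beside those of Apol7c (43152 and 191555). In high and low gainers the means were 1730 and 7265 for Cdh1, 2809 and 11076 for Sidt1, and 1685 and 6539 for Ltf. Cdh1 and Ltf were in the dimmest 33.3% of tested probes, where ratios are less certain. The likeness is one of measured profile over arrays of 2 pools, and nothing follows from it about shared cells or control.

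**Figure D3:**
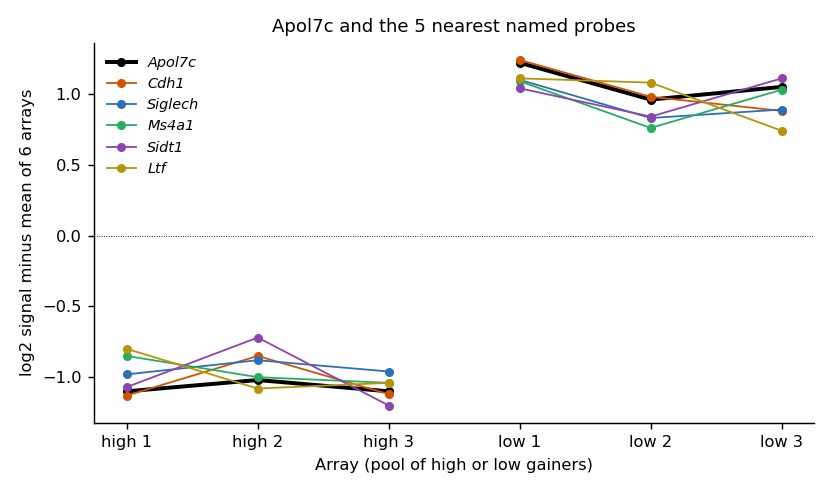
Mean-centred log2 signal (y axis) on each of the 6 arrays (x axis) for Apol7c and the 5 named probes nearest to it, with lines joining the arrays of a pool, which have no order. All 6 genes are below 0 on the high and above 0 on the low gainer arrays, Apol7c at -1.10 and 1.22 on the first array of each pool.

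Markers of several other cells in the depot were lower in high gainers, as Apol7c was, where 3.99% of all tested probes were called lower. All 8 tested B lymphocyte markers were lower in high gainers, with a summed signal of 118109 to 129280 against 388906 to 407159 in low gainers, led by Cd22 (log2 ratio -2.05, adjusted p = 0.00131). The Cd22 signal was dim, with means of 1350 in high and 5404 in low gainers. Blk, a B cell kinase, had no value on any high gainer array and read a dim 2751 and 2915 on low gainer arrays 1 and 2 only. Of 8 T lymphocyte markers 6 were lower, led by Cd3g (-1.85, adjusted p = 0.000621), with sums of 117700 to 141051 against 342243 to 397985. Of 11 dendritic cell markers 4 were lower, led by Siglech (-1.88, adjusted p = 0.000174), with sums of 378169 to 437583 against 457700 to 502256. Most of these sums came from Clec10a, whose pools overlapped, with means of 317577 in high and 297218 in low gainers.

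Glandular epithelium gave 5 lower of 10 tested, led by Krt18 (adjusted p = 0.000309). Krt19, Cldn7 and Esrp1 had no value on any high gainer array. Their low gainer values, at most 3920, were all dim, and those of Krt19 and Cldn7 came from 2 arrays only. Epcam and Krt5 had a value on 1 high gainer array each, 1001 and 856, and were not fitted. On the low gainer arrays Epcam read 14220, 12152 and 11672, and Krt5 read 9689, 4689 and 6281. The list's summed signal went the other way, 1171383 to 1296615 in high gainers against 1085394 to 1117301, because Trf, a transferrin that fat also makes, holds most of it. Skeletal muscle gave 9 lower of 10, led by Mb (-1.29, adjusted p = 0.00209), with sums of 1141782 to 1211381 against 2111051 to 2324911. Ucp1 was the only one of 7 brown and beige markers past the thresholds (adjusted p = 0.000174). Without adjustment limma put 6 of the 7 lower at p under 0.05, beside 13.6% of all tested probes. The median log2 ratio of these 7 was -0.58. The part of any of these cells in the Apol7c value was not tested.

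The macrophage list, the cells besides adipocytes best known for Apoe and Apoc1, gave no call among 11 tested in limma or the methods' test. Without adjustment limma put 2 of the 11 higher and 0 lower at p under 0.05, beside 17.4% and 13.6% of all tested probes. The list's summed signal was 2190798 to 2368254 in high gainers and 2161742 to 2336730 in low gainers. The endothelial list gave no call among 8 by either method, with 4 higher without adjustment and sums of 491501 to 551596 against 434275 to 456568. The interferon response list gave no call among 9 by either method, with 0 higher and 1 lower without adjustment, and sums of 205450 to 222995 against 201891 to 212308.

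**Figure D4:**
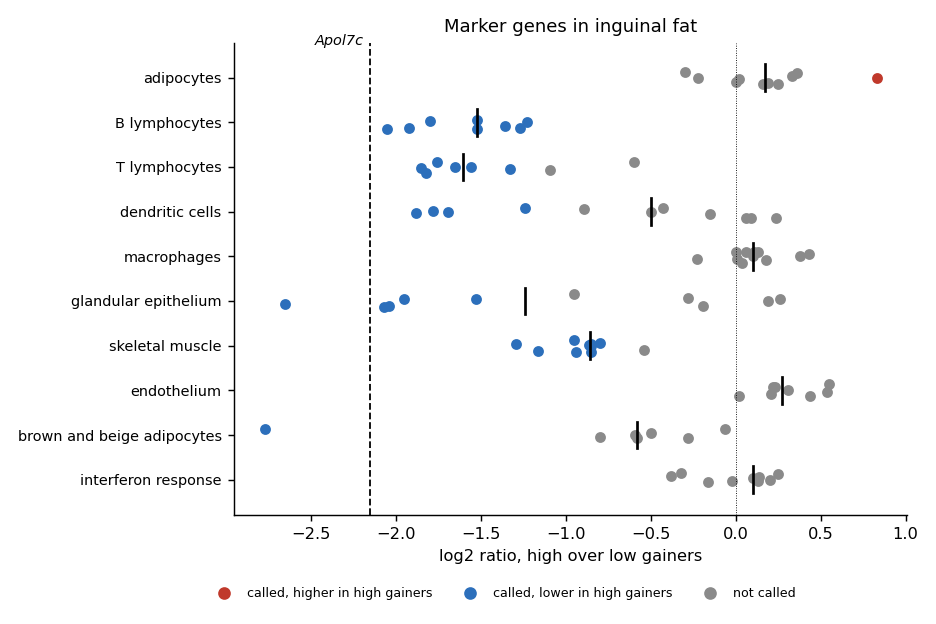
Log2 ratio of high over low gainers (x axis) of the tested genes of 10 marker lists (rows), with a point for a gene, a black bar at a list's median and a dashed line at Apol7c. Medians were below 0 for T cells (-1.61), B cells (-1.52), glandular epithelium (-1.24), skeletal muscle (-0.86), brown and beige adipocytes (-0.58) and dendritic cells (-0.50). The Apol7c line is at -2.15, with Ucp1 (-2.77) and Krt18 (-2.65) beyond it. Medians of adipocytes (0.18), macrophages (0.10), the interferon response (0.10) and endothelium (0.27) lie above 0.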

How the data were processed

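RNA from 2 pools of inguinal fat was hybridised to the one-colour Applied Biosystems Mouse Genome Survey Microarray, 3 arrays a pool. The authors quantile-normalized the signals, and the deposited table holds them as linear intensities, with empty cells whose reason is not stated. The study's methods tested features that passed its signal-to-noise and quality criteria, and whether the empty cells are those that failed is not known here. Groups came from the sample labels. For this report log2 of the deposited intensities of 15821 probes with 6 values was fitted with limma 3.58.1 (lmFit and eBayes, R 4.3.3), two-sided, Benjamini-Hochberg adjusted over all these probes, and called at an adjusted p under 0.01 and a fold of at least 1.5. The study's methods used ANOVA, run here as an alternative. The other alternatives were a second quantile normalization, median centring, filters on dim or incomplete probes, an offset, the replicate number as a block, trended variance, other fold thresholds, the mean of a gene's probes, and each array left out. The fit was tested on simulated data.

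Genes were named through the platform annotation, with 14402 of 14411 single-symbol probes matched to RefSeq GRCm38.p6, 247 probes with several symbols and 18354 with none. A gene with several probes took the brightest. The text names the 8 genes, each called gene and the extremes of 7 related lists, some classical genes, the 5 probes nearest to Apol7c and leading markers of 10 lists. The 8 genes and all lists were chosen with earlier results of these data known. Sequences were aligned with Biopython 1.88. Array number limits the precision.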

Additional observations from a re-analysis of the deposited data

How the results depend on the processing

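Apol7c kept its direction and size under every alternative run, from -2.21 to -2.07 with an array left out and -2.08 with an offset of 2848 added to the signals, and no called gene changed direction. Abca1, near 0, ran from -0.07 to 0.16. The calls were less firm. The 1028 probes called, with 3 related genes higher and 5 lower, became 500, 1 and 1 at a fold of at least 2, and 157, 0 and 0 in the ANOVA after adjustment (1153, 4 and 5 without it). With an array left out they ranged over 473 to 812, 1 to 2 and 0 to 5. Of the related genes, 1 was lower without high gainer array 1 or 2, 2 without low gainer array 2 and 0 without low gainer array 3. In that last fit limma without adjustment put 19 of 47 higher (40.4%) and 9 lower (19.1%) at p under 0.05, beside 13.6% and 10.9% of all tested probes. The related genes' median of 0.17 was 0.11 without dim probes, 0.14 with probes on at least 2 arrays a pool, 0.13 with the offset and 0.15 to 0.23 with an array left out. The median of the other measured genes among the 8 ranged from 0.23 to 0.30 with an array left out, and was 0.48 without Apoe, a setting chosen after seeing the data.

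The labels give same-numbered arrays of the pools no link beyond the number, and whether they were processed together is not known. Their deviations from the pool means correlated at 0.04, -0.11 and 0.27. With the replicate number as a block, 619 probes were called and 1 related gene was lower. Technical arrays of 1 pool a group limit all of this, and Apoe sits at the ceiling of the scale.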

Other observations

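Some genes share the apolipoprotein prefix without being lipoprotein genes, and their values were looked up after the rest had been seen. Apobec3, a cytidine deaminase that restricts retroviruses and is abundant in lymphoid cells, read 5134, 4223 and 3864 in high gainers and 13285, 13509 and 10733 in low gainers, a fall of 2.84-fold (log2 ratio -1.51, SE 0.15, adjusted p = 0.000683, limma). The mean signal of Apobec3 was in the dimmest 33.3% of tested probes. Apobec1, the enzyme that edits Apob messenger RNA, had a log2 ratio of 0.40 (adjusted p = 0.0471), and Apobec2, its relative in muscle, -0.46 (adjusted p = 0.0187). Neither passed the thresholds, and a second Apobec2 probe lacked a value on some array and was not tested. Apool, a protein of mitochondrial inner membrane folds, had -0.10 (adjusted p = 0.615). Its relative Apoo read 1629 and 1895 on high gainer arrays 1 and 3 and had no value on the other 4.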
